A study of Homo sapiens with 12 samples.

Results

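Bone morphogenetic protein (BMP) ligands and the genes that respond to them were examined in RNA sequencing counts of SKOV3 and SKOV3/DDP cells. SKOV3 is a human ovarian cancer line labelled as sensitive to cisplatin, and SKOV3/DDP is its cisplatin-resistant counterpart, described by the study as a stable line derived from it. That origin was not tested here, so each difference between the lines is one between libraries as labelled. Each line was sequenced without treatment and after PAE (Paeonol, a phenolic compound of peony root bark), which gave 4 groups of 3 libraries, written SKOV3, SKOV3_PAE, SKOV3/DDP and SKOV3/DDP_PAE. The labels give no dose, time or batch. The count columns of the treated libraries carry a different number in each line, whose meaning is not given, so equal doses cannot be assumed, and neither line carries an engineered allele. The set held 10 of the 46350 named genes: the ligands BMP2, BMP4 and BMP7, the response genes ID1, ID2 and ID3, and the inhibitors SMAD6, SMAD7, BAMBI and GREM1. It was assembled because BMP4 counts were seen in SKOV3/DDP alone, so the levels of these genes in the 2 lines chose the set. Their differences between the lines are a description, for which no p-value is given and from whose calls nothing is read. Changes with PAE were tested.

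BMPs are secreted dimers of the transforming growth factor beta superfamily. They bind paired type I and type II receptor kinases, which phosphorylate SMAD1, SMAD5 and SMAD9, and these enter the nucleus with SMAD4 and switch on target genes. The ID genes, which encode inhibitors of basic helix-loop-helix transcription factors, are classic direct targets. SMAD6, SMAD7 and BAMBI are induced in many cells and hold the signal down, and GREM1 encodes a secreted protein that captures BMP2, BMP4 and BMP7. In ovarian tissue, BMPs are known as regulators of follicle growth, and the surface epithelium and its tumours can both make and sense them.

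The sequences in front of the ID genes and at the SMAD6 start are shown because these 4 genes are known SMAD targets, of which ID1, ID3 and SMAD6 shared a low level in SKOV3/DDP and ID2 did not. RefSeq promoters on GRCh38.p14 were found for 8 of the 10 genes, BMP2 and BMP7 not being among them. Each of the first 3 sequences is the 250 bases before the RefSeq start, read 5′ to 3′ on the gene's own strand. Capitals mark GGAGCC in either orientation (GGCTCC on the other strand), a GC-rich motif bound by the BMP SMADs, and the palindrome GTCTAGAC, which holds the SMAD box GTCT on both strands. The ID1 stretch lies on the plus strand at chr20:31605039-31605288, ID2 on the plus strand at chr2:8681806-8682055 and ID3 on the minus strand at chr1:23559502-23559751. The SMAD6 stretch holds the last 26 bases before its RefSeq start, plus strand, chr15:66702210-66702235.
ID1: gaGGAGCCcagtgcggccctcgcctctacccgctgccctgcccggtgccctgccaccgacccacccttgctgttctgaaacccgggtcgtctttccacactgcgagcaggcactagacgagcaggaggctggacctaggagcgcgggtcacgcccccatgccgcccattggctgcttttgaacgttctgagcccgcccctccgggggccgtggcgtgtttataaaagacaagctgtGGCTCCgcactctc
ID2: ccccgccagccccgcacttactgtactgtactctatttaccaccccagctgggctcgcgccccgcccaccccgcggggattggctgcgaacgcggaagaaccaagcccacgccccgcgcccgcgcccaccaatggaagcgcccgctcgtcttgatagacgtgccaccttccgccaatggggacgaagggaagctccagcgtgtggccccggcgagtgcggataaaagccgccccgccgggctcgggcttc
ID3: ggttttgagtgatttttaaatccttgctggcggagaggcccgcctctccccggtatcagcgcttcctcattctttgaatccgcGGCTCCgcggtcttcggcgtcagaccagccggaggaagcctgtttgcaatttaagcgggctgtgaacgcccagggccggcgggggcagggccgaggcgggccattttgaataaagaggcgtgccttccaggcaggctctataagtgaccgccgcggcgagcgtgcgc
SMAD6: GGAGCCgccaaagtGTCTAGACtggc

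The ID1 stretch held 2 copies of GGAGCC, the ID3 stretch 1 and the ID2 stretch 0. The full 250 bases before the RefSeq start of SMAD6 held 3 copies of GGAGCC and 1 copy of GTCTAGAC. The annotation used for the counts starts SMAD6 at 66702110, inside this window. By that annotation all of these matches, and the printed 26 bases, lie within the gene. The 8 members with a promoter had 13 windows in all, since several have more than 1 RefSeq start. GGAGCC occurred in 6 of these 13 windows, each of another gene, and in 30% of 27305 promoters when 1 window, the first listed, was taken per gene. In the first listed windows alone it occurred in 4 of the 8 members. The other GC-rich form, GGCGCC, which is its own reverse complement, occurred in 3 of the 13 windows, all first listed, and in 16.1% of the 27305 promoters. BAMBI, whose window is not shown, had 4 copies of GGAGCC and 3 of GGCGCC, the most of any member. It did not share the low level of ID1, ID3 and SMAD6 in SKOV3/DDP, as given below. GTCTAGAC was rare, with 48 promoters or 0.176%, and SMAD6 was the 1 member that had it. A match is a run of letters, and no binding was measured. Bases farther from the starts were not searched, so a count of 0 covers that window alone. A link of these matches to the levels was not tested.

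The libraries held between 14572701 and 18240553 counts in named genes. The 3 untreated SKOV3 libraries stood apart from the other 9. They had a count in 17951 to 18240 named genes, against 21469 to 23194 in the others. Across 15682 genes, the deviation of a gene from its mean over the 12 libraries went with the GC content of its transcript at a Spearman rho of 0.669 to 0.675 in untreated SKOV3 and of -0.534 to -0.325 in the others. GC content ran from 51.0% in BAMBI to 58.9% in SMAD6 over the members other than GREM1, which had 39.8%. Log2 fold changes that use untreated SKOV3 are therefore given a second time, for the members other than BMP4, BMP7 and GREM1 between the lines and for the members and named pathway genes with PAE, after a smooth dependence on GC content and length was removed from every library (called the GC and length trend). Levels are given with that trend left in. All 3 untreated SKOV3 libraries carried it, so the trend and that group cannot be told apart. Levels are CPM (a gene's counts in proportion to the library total) after TMM scaling, which adjusts for differences in RNA composition. Errors of levels are SDs over 3 libraries.

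The lines were also checked against fixed marker genes. Epithelial genes EPCAM, KRT8, KRT18, KRT19 and CDH1 and the 3 genes of the ERBB2 amplicon region were above 1 CPM in all 4 groups, at unlike levels. In SKOV3 and SKOV3/DDP, in that order, EPCAM was at 1.26 CPM and 289 CPM, KRT19 at 7.66 CPM and 1349 CPM and CDH1 at 7.63 CPM and 442 CPM. ERBB2 was at 306 CPM and 96.5 CPM, GRB7 at 99.1 CPM and 26.0 CPM and STARD3 at 224 CPM and 41.3 CPM. The ovarian and Mullerian markers PAX8 and MSLN were above 1 CPM in all 4 groups, and differed between the lines in opposite directions. PAX8 was at 29.7 CPM in SKOV3 and 4.13 CPM in SKOV3/DDP, and MSLN at 149 CPM and 388 CPM. SOX17 had no count in any library, and WT1 and EMX2 were below 1 CPM in every group. The ovarian cancer antigen gene MUC16 was at 2.09 CPM in SKOV3 and 7.41 CPM in SKOV3_PAE, and at 0.390 CPM in SKOV3/DDP and 0.446 CPM in SKOV3/DDP_PAE. Of 6 intestinal markers, CDX1, CDX2, VIL1, CDH17 and LGALS4 were above 1 CPM in both SKOV3/DDP groups and none in either SKOV3 group. The summed level of the 6 was 532 to 576 CPM in SKOV3/DDP, 163 to 249 CPM in SKOV3/DDP_PAE, 0.254 to 0.887 CPM in SKOV3 and 0.158 to 0.465 CPM in SKOV3_PAE. KRT7 differed the other way, with 3607 ± 152 CPM in SKOV3 and 1.22 ± 1.03 CPM in SKOV3/DDP (SD, n = 3). The part of these marker differences in the BMP values, and what they say of the origin of the lines, was not tested. The fibroblast collagen gene COL1A2 and the endothelial gene CDH5 had 0 counts in all 12 libraries, and the leukocyte gene PTPRC had 0 in the untreated ones. Other genes of these lists were detected. COL1A1 was at 12.1 CPM in SKOV3, 7.23 CPM in SKOV3_PAE, 3.98 CPM in SKOV3/DDP and 0.441 CPM in SKOV3/DDP_PAE, and DCN was at 3.05 CPM in SKOV3_PAE and below 1 CPM elsewhere. PECAM1 was at 4.29 CPM in SKOV3 and 7.66 CPM in SKOV3_PAE and below 1 CPM in SKOV3/DDP with or without PAE, and CD68, which is not particular to leukocytes, ran from 24.1 CPM in SKOV3_PAE to 97.1 CPM in SKOV3/DDP.

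BMP4, which encodes a ligand that patterns the embryo and later acts in many epithelia, was the ligand of SKOV3/DDP. The gene (Gene ID 652) lies on the minus strand of chromosome 14 at 53949736 to 53956891 on GRCh38. Its level was 627 CPM, 266 CPM and 711 CPM in the 3 SKOV3/DDP libraries and 131 CPM, 144 CPM and 98.1 CPM in the 3 SKOV3/DDP_PAE libraries. It had 0 counts in each of the 6 SKOV3 libraries, where a count of 0 over a group allows at most 0.0862 CPM in SKOV3 and 0.0537 CPM in SKOV3_PAE, from 3 counts over the group's summed library sizes after TMM scaling. The lowest SKOV3/DDP library was above the highest SKOV3/DDP_PAE library. Against that floor, BMP4 was at least 6258-fold higher in SKOV3/DDP than in SKOV3, and at least 2340.5-fold higher with PAE. These bounds cover counting error only. In bulk RNA, fewer cells of a type and less RNA per cell cannot be told apart.

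BMP7, a ligand of the second BMP subgroup known for its role in kidney and eye development, had the opposite distribution. The gene (Gene ID 655) lies on the minus strand of chromosome 20 at 57168753 to 57266641. Untreated SKOV3 held 86.5 CPM, 77.2 CPM and 72.3 CPM of BMP7, against 27.0 CPM, 26.6 CPM and 27.8 CPM with PAE. SKOV3/DDP had 6 counts in all, 3 each in replicates 1 and 3, and SKOV3/DDP_PAE had 0. On the same scale the ratio of SKOV3 to SKOV3/DDP was 648, with a 95% counting interval of 297 to 1768, and BMP7 was at least 541-fold higher in SKOV3_PAE than in SKOV3/DDP_PAE.

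BMP2, the closest relative of BMP4 and an inducer of bone and cartilage, was found in all 12 libraries. The gene (Gene ID 650) lies on the plus strand of chromosome 20 at 6767686 to 6780246. Its level was 9.05 CPM, 6.39 CPM and 10.6 CPM in SKOV3 and 35.1 CPM, 24.6 CPM and 20.1 CPM in SKOV3_PAE. In SKOV3/DDP it was 2.25 CPM, 5.74 CPM and 1.96 CPM, and in SKOV3/DDP_PAE 10.3 CPM, 8.60 CPM and 12.6 CPM. In order of their means, the groups ran from SKOV3_PAE through SKOV3/DDP_PAE and SKOV3 to SKOV3/DDP. The libraries of SKOV3/DDP_PAE and SKOV3 overlapped, and the other neighbours in that order did not. The log2 fold change of BMP2 between the lines was -1.39 (SE 0.39) without PAE, -0.63 with the trend removed, and -1.34 (SE 0.37) with PAE, lower in SKOV3/DDP each time.

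**Figure D1:**
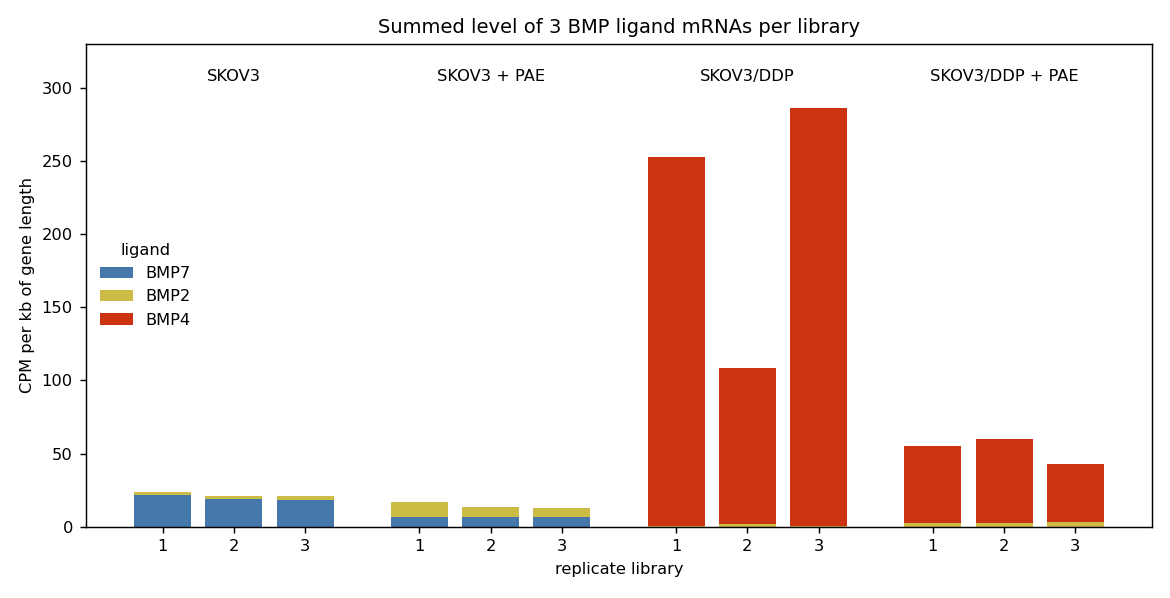
Summed level of the ligand mRNAs BMP2, BMP4 and BMP7 in each library, in CPM per kb of gene length (vertical axis, from 0), with 1 stacked bar per library and 3 libraries per group. SKOV3 bars reach 21.0 to 24.1 and are mostly BMP7, while SKOV3/DDP bars reach 108 to 286 and are almost wholly BMP4.

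Divided by gene length, the ligands could be set against each other. BMP7 made up 85.7% to 91.4% of the summed BMP2, BMP4 and BMP7 level per kb in the SKOV3 libraries. With PAE the share of BMP7 in SKOV3 was 40.4% to 54.9% and that of BMP2 45.1% to 59.6%. BMP4 made up 98.5% to 99.8% in SKOV3/DDP and 91.7% to 96.0% in SKOV3/DDP_PAE. The summed level per kb was 21.0 to 24.1 CPM in SKOV3, 12.6 to 16.6 CPM in SKOV3_PAE, 108 to 286 CPM in SKOV3/DDP and 42.9 to 60.3 CPM in SKOV3/DDP_PAE. The 4 groups did not overlap in this sum. Other BMP ligands were left out of these shares and sums, among them BMP6 and BMP8B, named after their values were seen. In SKOV3 the mean per kb was 5.89 CPM for BMP6, 3.07 CPM for BMP8B and 2.45 CPM for BMP2. In SKOV3/DDP it was 3.30 CPM for BMP8B and 0.936 CPM for BMP2. Shares and sums were not computed with the GC and length trend removed. With that trend removed, BMP7 was not called lower with PAE in SKOV3, as given below.

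The response genes did not have the pattern of BMP4 over the groups. ID1 (Gene ID 3397), on the plus strand of chromosome 20 at 31605289 to 31606510, is the most widely used readout of BMP signalling. It stood at 3424 CPM, 3406 CPM and 3112 CPM in SKOV3 and at 226 CPM, 642 CPM and 591 CPM in SKOV3_PAE. In SKOV3/DDP the level was 140 CPM, 54.3 CPM and 174 CPM, and in SKOV3/DDP_PAE 39.5 CPM, 82.9 CPM and 26.4 CPM. Every SKOV3 library, treated or not, was above every SKOV3/DDP library. SKOV3/DDP was lower than SKOV3 by a log2 fold change of -4.76 (SE 0.53) without PAE, -1.75 with the GC and length trend removed, and -3.29 (SE 0.50) with PAE.

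ID3 (Gene ID 3399), on the minus strand of chromosome 1 at 23557926 to 23559501, encodes a close relative of ID1. Its SKOV3 libraries were far apart, at 395 CPM, 110 CPM and 57.4 CPM. The SKOV3_PAE libraries stood at 5.64 CPM, 93.3 CPM and 75.9 CPM, so that replicate 1 was at the level of the resistant line. ID3 was 7.73 CPM, 7.70 CPM and 6.37 CPM in SKOV3/DDP and 4.51 CPM, 4.37 CPM and 4.46 CPM in SKOV3/DDP_PAE. Between the lines, ID3 was lower in SKOV3/DDP by a log2 fold change of -4.69 (SE 0.83) without PAE, -2.04 with the trend removed, and -3.71 (SE 0.80) with PAE.

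ID2 (Gene ID 3398), on the plus strand of chromosome 2 at 8682056 to 8684461, is an ID gene that also answers to other signals. It was lowest in untreated SKOV3, at 7.01 CPM, 6.82 CPM and 8.90 CPM. SKOV3_PAE held 194 CPM in replicate 1 and 17.3 CPM and 18.9 CPM in the others. SKOV3/DDP held 30.9 CPM, 54.1 CPM and 36.1 CPM, and SKOV3/DDP_PAE 34.1 CPM, 50.3 CPM and 25.7 CPM. Untreated, ID2 was higher in SKOV3/DDP, with a log2 fold change of 2.41 (SE 0.71) and of 4.0 with the trend removed. With PAE the log2 fold change was -1.06 (SE 0.66), and it was 1.01 without replicate 1 of SKOV3_PAE, so this direction rested on 1 library.

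**Figure D2:**
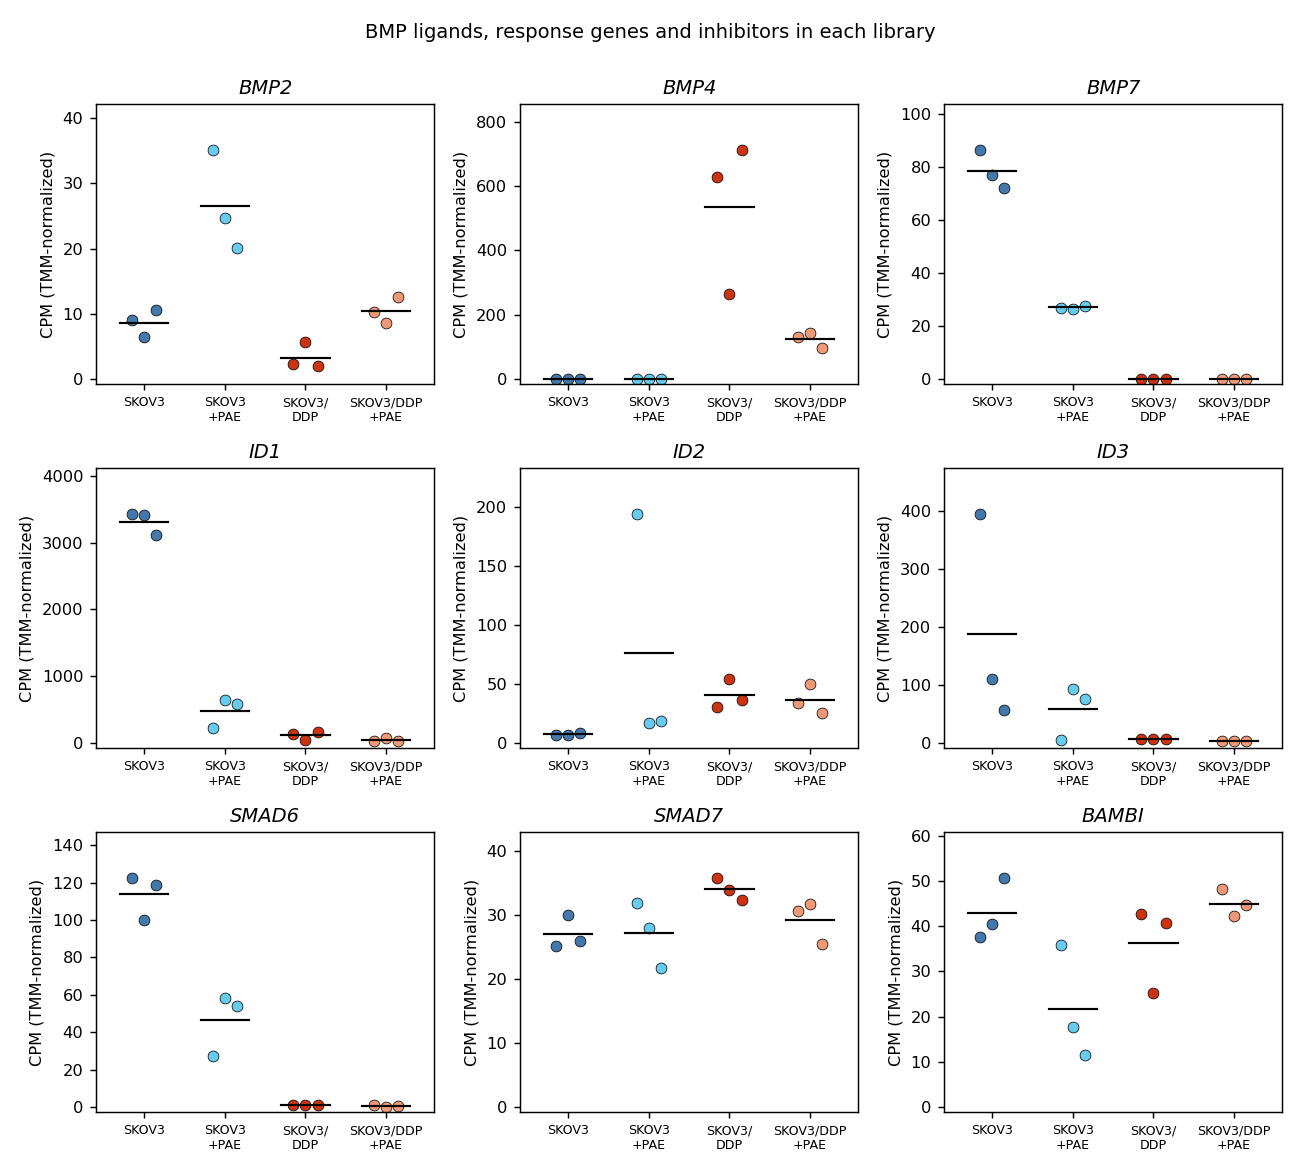
Level of 9 members in each of the 12 libraries, in TMM-normalized CPM (vertical axes, linear and scaled to each gene). Points are libraries in replicate order and horizontal lines are means of 3; BMP4 lies at 0 in both SKOV3 groups, while ID1, ID3 and SMAD6 lie near the bottom in both SKOV3/DDP groups.

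Among the inhibitors, SMAD6 had the widest gap between the lines. SMAD6 (Gene ID 4091, plus strand of chromosome 15, 66702110 to 66782849) encodes the inhibitory SMAD that acts mainly on BMP signals. Its level was 122 CPM, 99.9 CPM and 119 CPM in SKOV3 and 27.6 CPM, 58.4 CPM and 53.9 CPM in SKOV3_PAE. It was 1.04 CPM, 1.33 CPM and 1.102 CPM in SKOV3/DDP and 1.08 CPM, 0.329 CPM and 0.495 CPM in SKOV3/DDP_PAE. SKOV3/DDP was lower by a log2 fold change of -6.61 (SE 0.40) without PAE, -4.81 with the trend removed, and -6.18 (SE 0.40) with PAE.

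SMAD7 (Gene ID 4092, minus strand of chromosome 18, 48919853 to 48950711), which restrains both BMP and TGF beta receptors, differed little between groups. Its level was 25.2 CPM, 30.0 CPM and 25.9 CPM in SKOV3 and 31.9 CPM, 28.1 CPM and 21.8 CPM in SKOV3_PAE. SKOV3/DDP held 35.8 CPM, 34.0 CPM and 32.4 CPM, and SKOV3/DDP_PAE 30.8 CPM, 31.8 CPM and 25.5 CPM. The log2 fold change between the lines was 0.33 (SE 0.20) without PAE and 0.11 (SE 0.20) with PAE, and 2.22 without PAE once the trend was removed.

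BAMBI (Gene ID 25805, plus strand of chromosome 10, 28677521 to 28682932) encodes a receptor-like membrane protein with no kinase domain. Its level was 37.6 CPM, 40.6 CPM and 50.6 CPM in SKOV3 and 35.7 CPM, 17.7 CPM and 11.6 CPM in SKOV3_PAE. It was 42.6 CPM, 25.3 CPM and 40.7 CPM in SKOV3/DDP and 48.3 CPM, 42.1 CPM and 44.6 CPM in SKOV3/DDP_PAE. Between the lines, the log2 fold change was -0.24 (SE 0.33) without PAE, 0.81 with the trend removed, and 1.06 (SE 0.33) with PAE. GREM1 (Gene ID 26585, plus strand of chromosome 15, 32718004 to 32745106) had 1 count in the 12 libraries, in replicate 2 of SKOV3_PAE, and did not pass the filter on low counts.

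In the fit over all genes, 2 members (BMP4 and ID2) were called higher and 5 lower in SKOV3/DDP without PAE, where 81.8% of 17133 genes were called. With PAE, 2 (BMP4 and BAMBI) were called higher and 5 lower, where 54.5% of genes were called. The 5 lower members were BMP2, BMP7, ID1, ID3 and SMAD6 in both. The members had been chosen on these levels, and both shares of all genes were high, so nothing is read from these counts. Without PAE, 8 members were called once the trend was removed, where 71.9% of 15682 genes were.

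**Figure D3:**
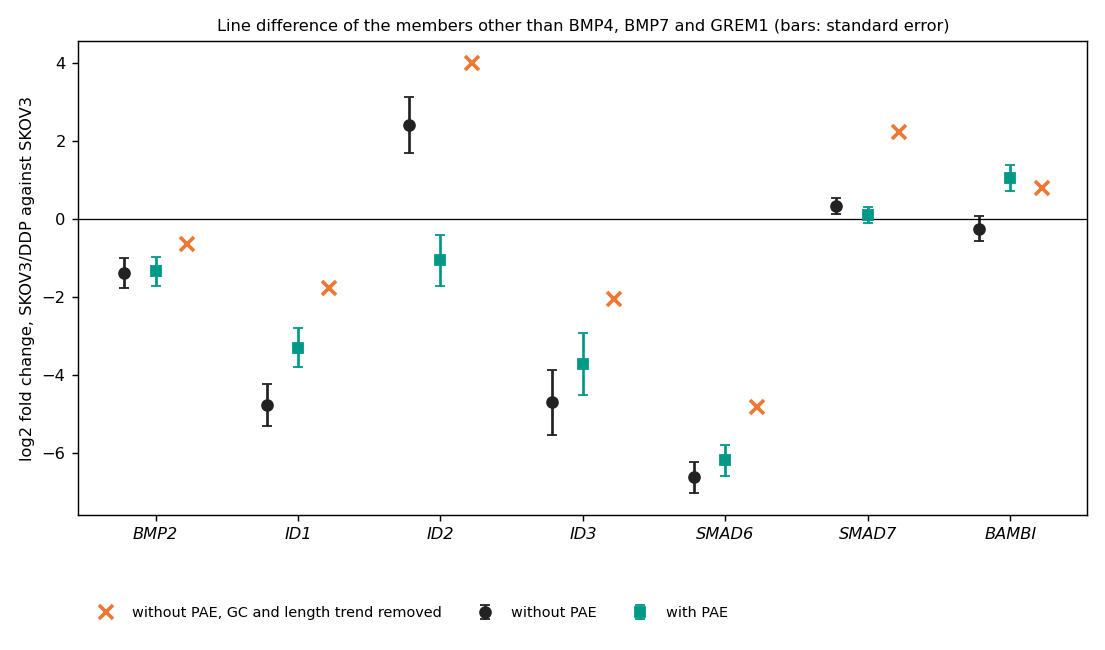
Difference between the lines as a log2 fold change, positive where SKOV3/DDP was higher (vertical axis), for 7 members, without PAE (circles), with PAE (squares) and without PAE after the trend on GC content and length was removed (crosses). Bars are standard errors; ID1, ID3 and SMAD6 lie below 0 in all 3 cases, whereas ID2 and BAMBI change side.

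In SKOV3/DDP, BMP4 fell and BMP2 rose with PAE. BMP4 fell by a log2 fold change of -2.10 (SE 0.35, adjusted p = 0.00170, edgeR quasi-likelihood test with Benjamini-Hochberg adjustment over 17133 genes). BMP2 rose by 1.66 (SE 0.39, edgeR adjusted p = 0.00654). The libraries of the 2 groups did not overlap for either gene. BMP4 stayed the main ligand, since its mean per kb with PAE was 49.9 CPM and that of BMP2 2.96 CPM.

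Of the response genes, ID1 alone was called lower with PAE in SKOV3/DDP, as BMP4 was. Its log2 fold change with PAE in SKOV3/DDP was -1.30 (SE 0.46, edgeR adjusted p = 0.049999), with overlapping libraries. That call lay at the threshold: the adjusted p was 0.0577 with the replicate block, 0.0852 with library size alone as the scale, 0.0775 with the trend removed and 0.204 without replicate 3 of SKOV3/DDP. The remaining response genes and inhibitors did not pass the test in SKOV3/DDP. ID2 had a log2 fold change of -0.14 (SE 0.66, edgeR adjusted p = 0.923) and ID3 one of -0.71 (SE 0.76, edgeR adjusted p = 0.527). SMAD6 had -0.85 (SE 0.42, edgeR adjusted p = 0.153), SMAD7 -0.22 (SE 0.20, edgeR adjusted p = 0.461) and BAMBI 0.31 (SE 0.33, edgeR adjusted p = 0.516). Even so, ID3 and SMAD7 were lower in every SKOV3/DDP_PAE library than in every untreated one, as BMP4 was and ID1 was not. The share of all genes without overlap was not computed. For each gene the fit shared 1 estimate of the spread among the 4 groups, and the SKOV3 libraries of ID3 were far apart.

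In all, 4 of 9 members were called in SKOV3/DDP with PAE, 1 higher and 3 lower, against 26.4% of all genes. The third lower member, BMP7, was called on 6 counts against 0, and without replicate 1 or replicate 3 of SKOV3/DDP its adjusted p was 0.0731 or 0.0727. It passed the filter on low counts only through the SKOV3 groups, where it was high, so nothing is read from its call. The median log2 fold change was -0.71 over the 9 members, BMP7 with its value of -4.10 among them, and 0 over all genes. Once the trend was removed, 3 members were called, against 30.5% of 15682 genes.

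Within each of the 2 SKOV3/DDP groups, the libraries with more BMP4 also had more ID1, an order noticed after the values were seen. It did not hold across the groups. Untreated replicate 2 had 266 CPM of BMP4 and 54.3 CPM of ID1, and PAE replicate 2 had 144 CPM and 82.9 CPM. Sorted by BMP4, the untreated libraries were replicates 3, 1 and 2, and the PAE libraries replicates 2, 1 and 3, and ID1 had that same order in both groups. The library lowest in both genes was also the one farthest from its group across all genes. Chi-square per degree of freedom between libraries was 101 and 92.6 for SKOV3/DDP replicate 2 against 16.6 between the other two, and 69.1 and 88.1 for SKOV3/DDP_PAE replicate 3 against 22.04. The part of this in the shared order was not tested. The same held in both groups for none of the other 6 members compared, BMP2, ID2, ID3, SMAD6, SMAD7 and BAMBI, and for 862 of 15567 genes with a count in all 6 libraries, or 5.54%. The ratio of ID1 to BMP4 CPM was 0.204 to 0.244 untreated and 0.269 to 0.576 with PAE, so each PAE library had more ID1 per BMP4 than every untreated one.

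**Figure D4:**
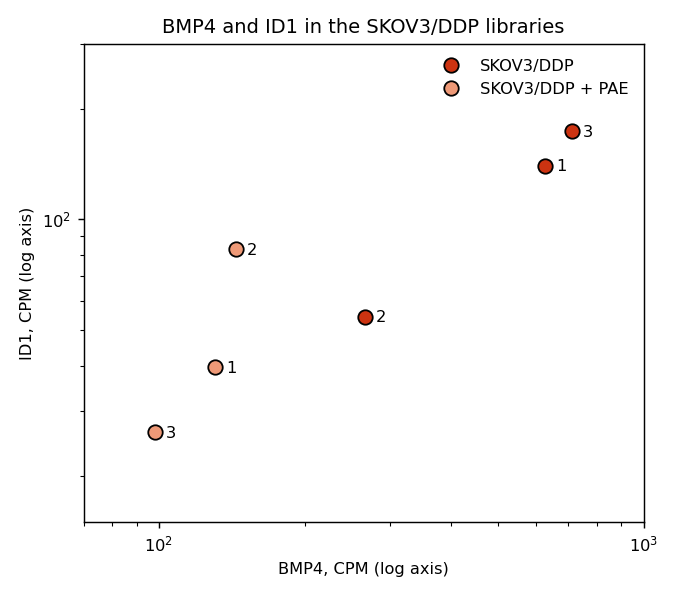
ID1 against BMP4 in the 6 SKOV3/DDP libraries, both in TMM-normalized CPM on log axes, with replicate numbers beside the points. Within each group of 3 the library with more BMP4 has more ID1, and the PAE libraries lie at 98.1 to 144 CPM of BMP4 against 266 to 711 CPM untreated.

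BMP2 also rose with PAE in SKOV3. The BMP2 log2 fold change was 1.62 (SE 0.38, edgeR adjusted p = 0.00119), and 2.39 (adjusted p = 0.000148) with the GC and length trend removed. The difference between the PAE effects of the lines was 0.05 (SE 0.52, edgeR adjusted p = 0.977), and it was -0.71 with the trend removed (adjusted p = 0.288). BMP2 was thus higher with PAE in each line, in 3 of 3 libraries against all 3 untreated ones.

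ID2 rose with PAE in SKOV3, with a log2 fold change of 3.34 (SE 0.73, edgeR adjusted p = 0.000718). Replicate 1 of SKOV3_PAE decided its size, since without that library the log2 fold change was 1.26 (edgeR adjusted p = 0.00261). With the trend removed it was 4.85 (edgeR adjusted p = 0.000197). The PAE effect on ID2 differed between the lines by -3.47 on the log2 scale (SE 0.97, edgeR adjusted p = 0.00570), by -4.90 with the trend removed and by -1.36 without replicate 1 of SKOV3_PAE (adjusted p = 0.0128).

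BMP7, ID1, ID3, SMAD6 and BAMBI were called lower with PAE in SKOV3, and none of the 5 was called lower once the GC and length trend was removed. ID1 had a log2 fold change of -2.77 (SE 0.49, edgeR adjusted p = 9.49e-05), and 0.25 (adjusted p = 0.657) with the trend removed. BMP7 had -1.54 (SE 0.27, edgeR adjusted p = 0.000147), and 0.23 (adjusted p = 0.443) with the trend removed. SMAD6 had -1.29 (SE 0.30, edgeR adjusted p = 0.00132) and turned to 0.75 (adjusted p = 0.0277).

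ID3 had -1.68 (SE 0.72, edgeR adjusted p = 0.0457) and turned to 0.91 (adjusted p = 0.330). BAMBI had -0.99 (SE 0.33, edgeR adjusted p = 0.0140), and -0.08 (adjusted p = 0.854) with the trend removed. SMAD7 had 0.01 (SE 0.20, edgeR adjusted p = 0.975) and 2.13 (adjusted p = 1.56e-06) with the trend removed. For these 6 genes the sign or the call with PAE in SKOV3 changed with that step.

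Counted together, 7 of 8 members with counts in SKOV3 were called with PAE, 2 higher and 5 lower, against 75.3% of all genes. The median log2 fold change was -1.14 over these members and 0.48 over all genes. With the trend removed, 4 were called, BMP2, ID2, SMAD6 and SMAD7, all higher, against 56.4% of all genes. ID2 and BAMBI alone passed the test of the difference between the lines, where 62.9% of all genes did, and BAMBI, at 1.30 (SE 0.47, edgeR adjusted p = 0.0240), was at 0.43 (adjusted p = 0.478) with the trend removed. With the trend removed, 4 members passed that test, against 46.2% of all genes. ID1 differed by 1.46 (SE 0.65, edgeR adjusted p = 0.0607) and by -1.37 (adjusted p = 0.0928) with the trend removed.

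**Figure D5:**
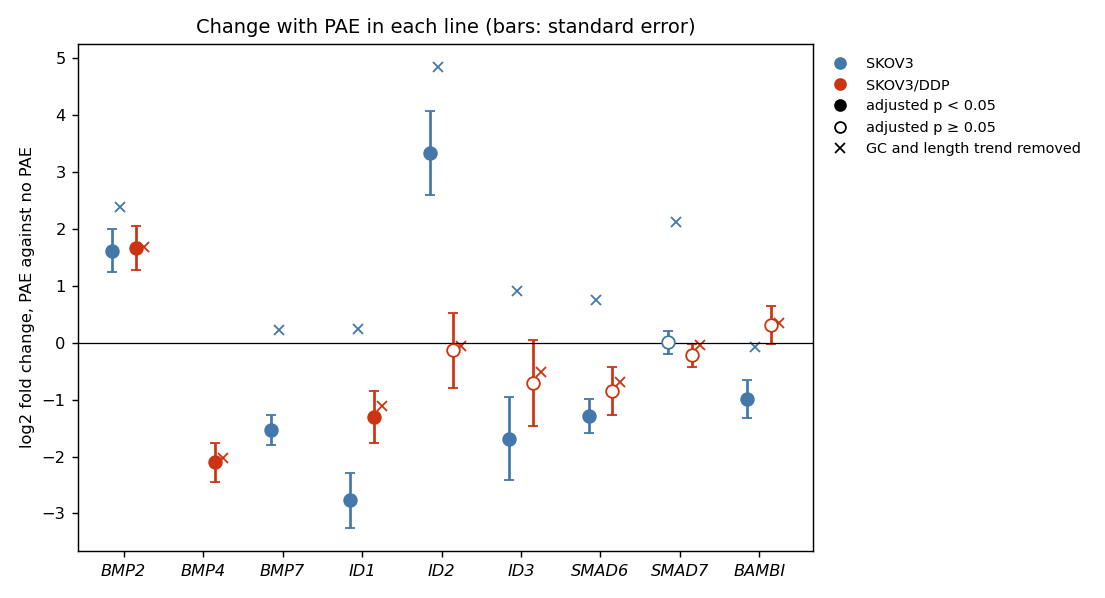
Log2 fold change with PAE (vertical axis) in SKOV3 (blue) and SKOV3/DDP (red) for the members with enough counts, with bars for the standard error, filled points for an adjusted p under 0.05 and crosses for values with the GC and length trend removed. BMP2 lies above 0 in both lines (1.62 and 1.66), and the SKOV3 points of BMP7, ID1, ID3 and SMAD6 lie below 0 with their crosses above it.

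Of 54 further genes of the pathway, 36 passed the filter on low counts. In SKOV3/DDP with PAE, 5 of 35 with counts were called higher and 3 lower, or 22.9% against 26.4% of all genes, and with the trend removed 7 and 4, against 30.5%. The 2 largest rises were those of the coreceptor gene RGMB (1.25, SE 0.26, edgeR adjusted p = 0.00316) and of SMAD5, a transducer (1.03, SE 0.26, edgeR adjusted p = 0.0101). The 2 largest falls were those of SMURF2, a ubiquitin ligase that acts on SMADs and receptors (-1.76, SE 0.32, edgeR adjusted p = 0.00133), and of CHRD, which encodes the secreted antagonist chordin (-1.18, SE 0.31, edgeR adjusted p = 0.0117). Thus a gene for a BMP antagonist was lower in the same libraries as BMP4.

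In SKOV3 with PAE, 18 of 35 pathway genes were called higher and 10 lower, or 80% against 75.3% of all genes, and with the trend removed 19 and 1, against 56.4%. SMURF2 rose there by 3.99 (SE 0.36, edgeR adjusted p = 1.15e-07), and by 1.35 (adjusted p = 0.00207) with the trend removed. SKIL, which encodes a SMAD corepressor, had 3.83 (SE 0.41, edgeR adjusted p = 5.10e-07) and 0.75 (adjusted p = 0.0960) with the trend removed. The 2 largest falls, NBL1, for a secreted antagonist (-2.37, edgeR adjusted p = 0.00297), and JUNB, a transcription factor gene (-2.35, edgeR adjusted p = 0.000349), were at 0.60 and 0.77 with the trend removed and no longer called.

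The PAE effect differed between the lines for 18 of 34 pathway genes, 5 higher and 13 lower, or 52.9% against 62.9% of all genes, and for 10 with the trend removed, against 46.2%. SMURF2 had the largest such difference, -5.75 (SE 0.48, edgeR adjusted p = 3.08e-07), and RUNX2, a transcription factor gene of bone, had -4.26 (SE 0.44, edgeR adjusted p = 1.22e-06). With the trend removed they were at -3.31 and -3.12, and both were still called. RGMA, another coreceptor, had 4.56 (SE 1.23, edgeR adjusted p = 0.00455), with 3 counts in SKOV3/DDP, and 3.35 (adjusted p = 0.0389) with the trend removed. JUNB had 3.14 (SE 0.66, edgeR adjusted p = 0.000646), which was 0.30 with the trend removed.

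Messenger RNA of BMP receptor genes was found in all 4 groups, and receptor protein was not measured. The type I receptor gene BMPR1A ranged over group means from 8.59 CPM in SKOV3 to 82.1 CPM in SKOV3_PAE, with 37.2 CPM in SKOV3/DDP and 49.9 CPM in SKOV3/DDP_PAE. The type II receptor gene BMPR2 ranged from 16.2 CPM in SKOV3 to 167 CPM in SKOV3_PAE, with 59.4 CPM in SKOV3/DDP and 84.2 CPM in SKOV3/DDP_PAE. ACVR1, a type I receptor gene, ranged from 10.2 CPM in SKOV3 to 51.8 CPM in SKOV3/DDP_PAE, ACVR2A, a type II receptor gene, from 0.696 CPM to 32.8 CPM and ACVR2B, another, from 4.85 CPM to 34.7 CPM in those groups. BMPR1B was at 1.19 CPM or less and ACVRL1 at 1.15 CPM or less in every group.

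With PAE, 5 of 6 receptor genes tested were called higher in SKOV3, where 75.3% of all genes were called. With the trend removed 2 were called higher (BMPR1A and ACVR2A) and 1 lower (ACVR2B), against 56.4% of all genes. That step moved the log2 fold change of BMPR1A from 3.26 to 0.60, of BMPR1B from 3.67 to 1.00 and of BMPR2 from 3.37 to 0.35. It moved ACVR1 from 1.32 to 0.05, ACVR2A from 3.79 to 1.06 and ACVR2B from 0.38 to -1.16. In SKOV3/DDP 1 of 6 was called, against 26.4% of all genes, namely ACVR1, at 0.74 (SE 0.25, edgeR adjusted p = 0.0369). Among the SMADs that carry the signal, group means of SMAD5 ran from 7.24 CPM in SKOV3 to 148 CPM in SKOV3/DDP_PAE, those of SMAD4 from 10.5 CPM to 101 CPM and those of SMAD1 from 3.53 CPM to 27.5 CPM in the same groups. SMAD9 was at 14.6 CPM in SKOV3_PAE and between 1.61 CPM and 2.51 CPM in the others. All 4 were called higher with PAE in SKOV3, against 75.3% of all genes called. With the trend removed 2 of them were, SMAD5 and SMAD9, against 56.4%. The log2 fold change went from 3.80 to 0.89 for SMAD5 and from 2.95 to 1.03 for SMAD9 with that step. It went from 2.72 to 0.35 for SMAD1 and from 2.57 to -0.00825 for SMAD4.

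Other response genes, named after their values were seen, did not go one way between the lines. MSX2, a homeobox gene known to answer to BMP4, had 0 counts in all 6 SKOV3 libraries and stood at 44.1 ± 8.02 CPM in SKOV3/DDP and 47.0 ± 7.68 CPM in SKOV3/DDP_PAE (SD, n = 3). It thus shared with BMP4 its presence in the resistant line alone, but not the lower level with PAE. ATOH8, a transcription factor gene induced by BMPs in several cell types, was at 27.4 ± 4.77 CPM in SKOV3 and 0.343 ± 0.0259 CPM in SKOV3/DDP, the same side as ID1 and SMAD6. The ligand gene BMP6 had the side of BMP7, at 22.3 ± 6.30 CPM in SKOV3 and 1 count in the 6 SKOV3/DDP libraries. ID4 had 0 counts in all 12 libraries.

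The genes most like BMP4 were sought among 14389 genes by the shares of the 4 group means in their sum, compared by Euclidean distance. The nearest 5 were ONECUT3 (distance 0.00288), LINC02144 (0.00554), RUBCNL (0.00578), CDX2 (0.00591) and CSRP3 (0.00612). BMP4 had 81.1% of its sum in SKOV3/DDP and 18.9% in SKOV3/DDP_PAE. CDX2, the intestinal homeobox gene among the markers above, had 80.7% and 19.3%, at 163 ± 49.8 CPM and 39.0 ± 1.61 CPM. ONECUT3, a homeobox gene of the hepatocyte nuclear factor 6 family, had 80.9% and 19.1%.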

How the data were processed

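Poly-A RNA of 12 libraries was sequenced after NEBNext Ultra preparation. The files deposited by the authors hold raw, whole-number counts of each gene for 47219 loci on GRCh38. The submitters' processing notes name HISAT2 2.0.5, StringTie 1.3.3b, DESeq2 and edgeR without their roles, and the strand of counting is not given in the sources used here, so reads of overlapping antisense genes cannot be told apart. The 869 loci without a name held 0.126% to 0.678% of counts and were left out. The design text speaks of both biological and experimental triplicates, so p-values measure the spread between libraries, which may be technical.

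Genes were filtered with filterByExpr, scaled with TMM and fitted with 4 groups in 1 model by edgeR 4.0.16 in R 4.3.3, and contrasts were tested by its 2-sided quasi-likelihood test, with p-values adjusted after Benjamini-Hochberg over 17133 genes and called under 0.05. Each SE was the absolute log2 value over the root of its F statistic. The GC and length trend was a natural spline with 5 degrees of freedom per property, fitted in each library and removed by offsets for the 15682 genes with both values. Gene length for levels per kb came from the files. Other alternatives were DESeq2 1.42.0, its size factors, library size alone, no filter, the replicate block, only the groups compared, each library left out and the criteria of the study's methods.

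The members and lists were chosen with earlier results of these data known. All 10 members are named. Of the other pathway genes, the 2 called genes of largest change in each direction with at least 1 CPM in a group are named for each PAE comparison, together with receptors and SMADs, and the 5 genes nearest to BMP4.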

Additional observations from a re-analysis of the deposited data

Results flagged for a closer look

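ID2 and BAMBI are listed here because PAE changed them differently in the 2 lines by the test of the difference itself. That test called 62.9% of all genes, and with the GC and length trend removed BAMBI was no longer called. For ID2 the effect in SKOV3/DDP minus that in SKOV3 was -3.47 on the log2 scale, and for BAMBI it was 1.30. ID2 kept its sign and its call when any of the 12 libraries was left out, within -3.91 to -1.36. BAMBI lost its call without replicate 3 of SKOV3, replicate 2 of SKOV3_PAE or replicate 2 of SKOV3/DDP, with adjusted p of 0.0604, 0.0542 and 0.0585 in edgeR, within 1.03 to 1.89 over the 12 fits.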

How the results depend on the processing

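Shares in brackets are those of all genes called under the same setting, and none was computed for the criteria of the study's methods. With PAE in SKOV3, 7 members were called (75.3%), 4 with the GC and length trend removed (56.4%) and 2 by those criteria. With a library left out, 5 to 7 were called (69.2% to 73.9%). In SKOV3/DDP 4 were called, BMP7 among them (26.4%), 2 by those criteria and 2 to 4 with a library left out (15.7% to 28.0%). The 2 came without replicate 1 or replicate 3 of SKOV3/DDP (15.7% and 15.9%). The difference between the lines called 2 (62.9%), 4 without the filter on low counts (35.8% of 31557 genes) and 4 with the trend removed (46.2%). With a library left out it called 1 to 3 (57.6% to 60.1%), the 1 coming without replicate 3 of SKOV3 (57.7%). It called 18 pathway genes, and 10 with the trend removed.

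With the trend removed, the sign turned for BMP7 (0.23), ID1 (0.25), ID3 (0.91) and SMAD6 (0.75) with PAE in SKOV3, for BMP2 (-0.71), ID1 (-1.37), ID3 (-1.43) and SMAD6 (-1.44) in the difference between the lines and for BAMBI (0.81) between the untreated lines. Library size alone moved the median of all genes (log2 fold change) with PAE in SKOV3 from 0.48 to 1.36, in the difference from -0.62 to -1.30 and between untreated lines from 0.54 to 1.23. It turned ID2 with PAE in SKOV3/DDP (0.0643), BMP2 (-0.63) and SMAD6 (-0.28) in the difference and BAMBI (0.46) between untreated lines. SMAD7 with PAE in SKOV3 was at -0.25 with DESeq2 or its size factors and at -0.0932 with only those groups fitted, and in the difference at 0.0451 and 0.0449 with DESeq2 and its size factors. These SMAD7 values were not called. With a library left out, signs turned for SMAD7 with PAE in SKOV3 (-0.11 to 0.15), ID2 with PAE in SKOV3/DDP (-0.39 to 0.13), BMP2 (-0.20 to 0.69), ID3 (-0.19 to 1.51) and SMAD6 (-0.16 to 0.79) in the difference, and, between the lines with PAE, ID2 (-1.54 to 1.01) and SMAD7 (-0.0381 to 0.221). The cause of these shifts was not tested.

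ID3 with PAE in SKOV3 was called in 6 of the 12 fits with a library left out, and ID1 with PAE in SKOV3/DDP in 3 of 12. BMP2 in either line and BMP4 in SKOV3/DDP kept direction and call in all 12.

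Same-numbered libraries of 2 groups had correlated deviations between -0.32 and 0.18, and no pair of groups exceeded 0.1 in all 3, so the numbers were not taken as a pairing. With the replicate block, 6 members were called with PAE in SKOV3, 3 in SKOV3/DDP and 2 in the difference. The shares of all genes called there were 74.1%, 23.3% and 61.4%, in that order.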
